A study of Mus musculus with 8 samples.

Results

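The 10 genes described here belong to TGF-beta and activin signalling and were followed in sorted liver sinusoidal endothelial cells, which line the capillaries of the liver, after an iron load: the ligand genes *Tgfb1*, *Tgfb2*, *Inhba* and *Inhbb*, the TGF-beta activator gene *Thbs1*, the activin inhibitor gene *Fst*, the receptor genes *Tgfbr1* and *Tgfbr2*, and the intracellular genes *Smad3* and *Skil*. They were found by matching gene symbols to the RefSeq accessions of the count files, and 10 of 10 had a target among the 23930 on the panel. Each was read through 1 target. The cells came from young, female, wild-type Balb/c mice and had been gated as low in CD45 and high in STAB2 and CD146. One group of 4 libraries came from mice given 150 µg of iron citrate into a vein, the other group of 4 from mice given 0.05 M citrate buffer, both 5 h before the cells were taken. All 8 mice thus had an injection, and no uninjected group was analysed here. The labels give 1 mouse per library and nothing on litters or days, so a p-value here measures only the spread between these 8 mice, part of which may be technical.

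TGF-beta is secreted in a latent complex, and it signals once it is freed, for example by thrombospondin-1, the product of *Thbs1*. The active ligand brings together the type II receptor TGFBR2 and the type I receptor TGFBR1, which phosphorylates SMAD2 and SMAD3, and these enter the nucleus with SMAD4. Activins, dimers of the inhibin beta chains encoded by *Inhba* and *Inhbb*, use their own receptors but the same SMADs, and follistatin, the product of *Fst*, binds and blocks them. *Skil* encodes SnoN, a co-repressor of SMAD complexes that TGF-beta signalling itself induces. In liver, this pathway is known for driving matrix production by stellate cells, and activin B can induce the iron hormone gene for hepcidin in hepatocytes.

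Counts on targets were between 7969520 and 11314659 per library, and values are given as CPM, read counts brought to a common library total with TMM factors, which correct for differences in composition. Each target is amplified with its own efficiency, so CPM are compared between libraries. Where CPM are summed over marker genes or used to choose genes, they carry that efficiency and do not show which gene has more RNA. As responses of the whole series, the haem oxygenase gene *Hmox1* was at 51.8 to 108 CPM after buffer and at 2920 to 3660 CPM after iron, and the iron sensor ligand gene *Bmp6* rose with a log2 fold change of 2.36 (edgeR adjusted p = 0.0423). Citrate buffer replicate 1 stood apart: it correlated with the other buffer libraries at a median of 0.839, where the remaining 7 libraries reached 0.962 to 0.981 within their groups. Olfactory, vomeronasal type 1 and taste receptor genes and keratin-associated protein genes, which liver is not known to use, took 2.42% of its counts, 0.984% in citrate buffer replicate 2, and 0.295% to 0.612% in the other 6 libraries. Summed over 15 sinusoidal endothelial markers, citrate buffer replicate 1 had 18227 CPM, against 28181 to 35363 CPM in the other 7. For the members, results that rest on this library are therefore given with and without it. For some other genes the fit without it is not given.

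None of the 10 genes was called at an adjusted p, corrected over all tested targets, under 0.05. *Fst* did not pass the filter on low counts, so 9 were tested, and edgeR called 0 of them higher and 0 lower, where it called 0.527% of all 14601 tested targets higher and 0.0274% lower. At an unadjusted p under 0.05, 2 of the 9 were higher, *Inhba* and *Skil*, and 0 lower, beside 6.57% and 8.0% of all targets. DESeq2, which called 2.01% of all targets higher and 0.466% lower, and limma-voom, which called 1.68% and 0.295%, also called 0 of the 9. Without citrate buffer replicate 1, edgeR again called 0 of the 9, beside 1.5% and 0.258% of all targets. In *Inhba* and *Skil* the lowest iron citrate library lay above the highest buffer library, a pattern shown by 6.36% of all tested targets, or 8.64% with both directions counted. The log2 fold change was above 0 in 7 of the 9, beside 49.0% of all tested targets. Its median was 0.17, against -0.01 over all tested targets. Without citrate buffer replicate 1, 5 of the 9 were above 0, and the 2 medians were 0.22 and -0.04.

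**Figure D1:**
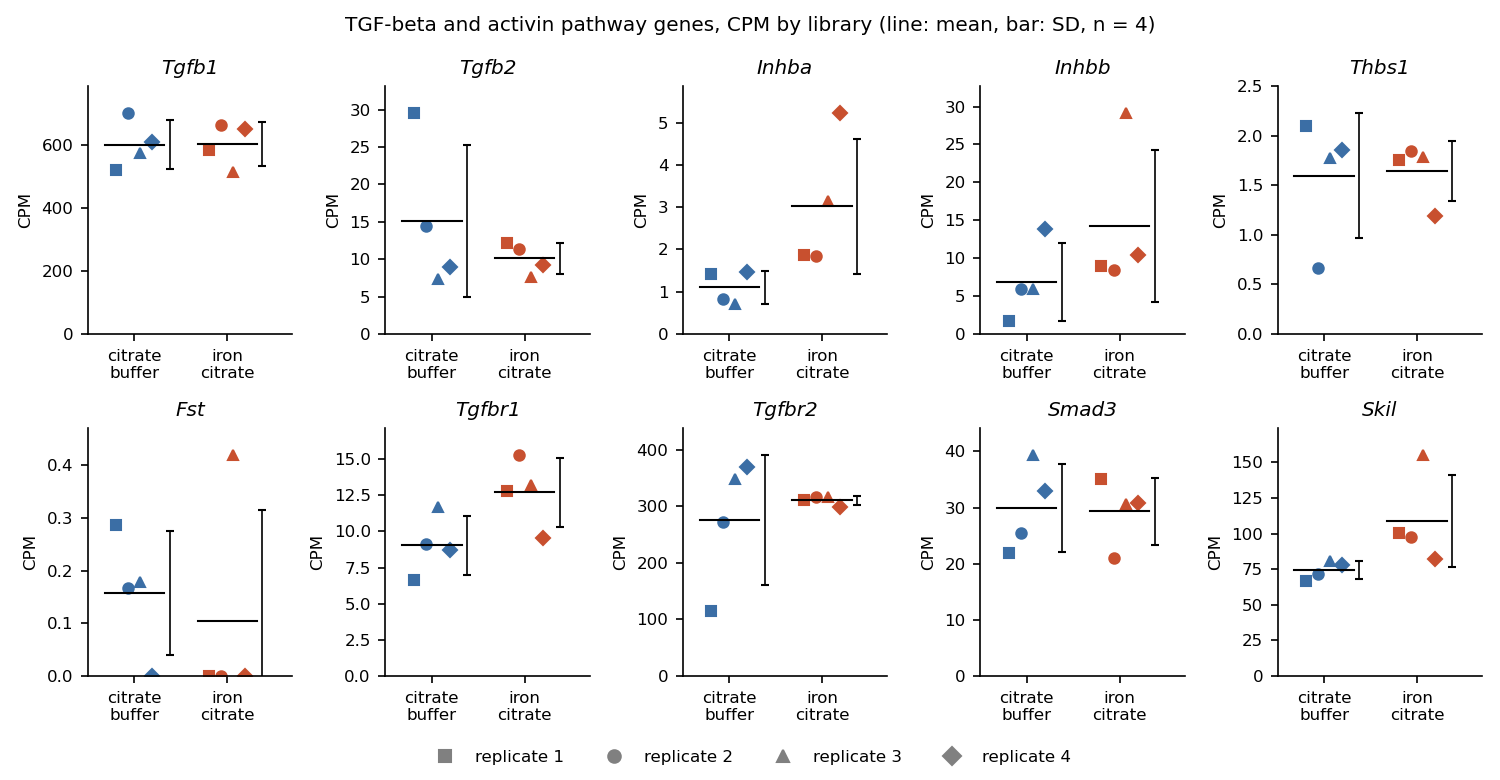
CPM (vertical axis, linear and from 0) of the 10 genes in the 4 citrate buffer and 4 iron citrate libraries, with the mean as a line and the SD as a bar, cut at 0. Replicate numbers, shown by marker shape, name mice, and the labels state no pairing. Only in *Inhba* and *Skil* do all iron citrate values lie above all buffer values, and citrate buffer replicate 1 is the highest of all libraries for *Tgfb2* and the lowest for *Tgfbr2*.

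The promoters of the 3 ligand genes with the largest differences in either direction are shown for the contrast in their composition. Each is the 250 bases before the RefSeq start in GRCm38.p6, written 5′ to 3′ on the strand of the gene: chr13:16011601-16011850, plus strand, for *Inhba*; chr1:119422249-119422498, minus strand, for *Inhbb*; and chr1:186705990-186706239, minus strand, for *Tgfb2*. Capitals mark matches, on either strand, to 4 motifs: CAGAC, the SMAD-binding element; TGACNNNGC, the core of the antioxidant response element bound by NRF2; TGANTCA, the AP-1 site, which can overlap the former; and TATAAA, the TATA box.
Inhba: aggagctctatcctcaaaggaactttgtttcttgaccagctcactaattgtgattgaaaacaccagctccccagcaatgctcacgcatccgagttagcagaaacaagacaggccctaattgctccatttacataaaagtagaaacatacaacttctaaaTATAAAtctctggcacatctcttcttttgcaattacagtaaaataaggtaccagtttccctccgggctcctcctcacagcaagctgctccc
Inhbb: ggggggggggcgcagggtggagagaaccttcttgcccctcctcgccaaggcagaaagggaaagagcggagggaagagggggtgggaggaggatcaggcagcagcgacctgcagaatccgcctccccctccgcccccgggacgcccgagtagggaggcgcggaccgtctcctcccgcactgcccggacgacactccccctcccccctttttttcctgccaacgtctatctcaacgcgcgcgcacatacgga
Tgfb2: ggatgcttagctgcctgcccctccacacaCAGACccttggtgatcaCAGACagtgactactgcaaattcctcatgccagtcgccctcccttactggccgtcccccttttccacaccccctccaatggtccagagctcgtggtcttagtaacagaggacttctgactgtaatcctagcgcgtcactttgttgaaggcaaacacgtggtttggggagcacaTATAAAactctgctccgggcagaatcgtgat
The *Inhba* window had 43.2% G and C bases, the *Inhbb* window 68.0% and the *Tgfb2* window 53.6%, against a median of 52.4% over all 32851 windows in the table. *Tgfb2* held 2 copies of CAGAC, a motif present in 42.2% of all windows, and 1 TATA box. *Inhba* held 1 TATA box, a motif present in 12.4% of all windows, and *Inhbb* held no match. Promoter entries were found for 7 of the 10 genes, in 8 windows, since *Tgfbr1* has 2 starts. CAGAC was in 3 of these 8, against 42.2% of all windows, and TATAAA in 2 of 8, against 12.4%. TGACNNNGC was in 2 of these 8, 1 of *Tgfbr1* and that of *Tgfbr2*, against 10.2% of all windows, and TGANTCA was in 0 of 8, against 6.75%. A match is a run of letters and does not show that a factor binds there.

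Among the ligand genes, those of the activin beta chains had the largest differences. *Inhba*, which encodes the beta A chain, was at 1.43, 0.835, 0.712 and 1.46 CPM in citrate buffer replicates 1 to 4 and at 1.86, 1.84, 3.15 and 5.24 CPM in iron citrate replicates 1 to 4. Every iron citrate library was thus above every buffer library, with replicates 3 and 4 well above the other iron libraries. These values rest on 8 to 15 reads per buffer library and 16 to 57 reads per iron library. The 1288 receptor and keratin-associated targets, which liver is not known to use, took 29921 to 221603 reads per library. How much of the *Inhba* counts is background of that kind was not tested. The means were 1.11 ± 0.390 and 3.02 ± 1.60 CPM (SD, n = 4 each), 2.73-fold apart. The log2 fold change was 1.46 with a 95% interval of 0.44 to 2.48, and it missed the threshold (edgeR adjusted p = 0.324, unadjusted p = 0.00981). Over the alternative fits that kept the gene, the log2 fold change was between 1.05 and 1.64 with adjusted p-values of 0.127 to 0.595.

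*Inhbb*, which encodes the beta B chain of activin B, was at 1.71, 5.93, 5.88 and 13.9 CPM in citrate buffer replicates 1 to 4. After iron citrate it was at 8.99, 8.41, 29.2 and 10.5 CPM. The groups overlapped, since citrate buffer replicate 4 lay above 3 of the 4 iron citrate libraries, and iron citrate replicate 3 was far above the rest. The log2 fold change was 1.07, with a wide interval of -0.30 to 2.43 (edgeR adjusted p = 0.362). Single libraries set its size: it was 0.44 without iron citrate replicate 3 and 1.66 without citrate buffer replicate 4. It was 0.76 without citrate buffer replicate 1, the lowest library, and 0.56 without citrate buffer replicates 1 and 2. Iron citrate replicate 3 also had the highest summed levels of the 12 Kupffer cell and macrophage markers (1190 CPM, against 688 to 1075 CPM in the other libraries), of the 12 stellate cell and fibroblast markers (779.6 CPM, against 339 to 770.3 CPM) and of the 8 continuous endothelial markers found on the panel (872 CPM, against 431 to 736 CPM). None of the genes in these 3 lists was at 0 in all libraries, which does not by itself show that a cell type was present. The part of these cell types in the *Inhbb* value was not tested.

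*Tgfb1*, the main TGF-beta ligand gene of blood and endothelial cells, did not differ beyond its spread. It was at 521, 704, 574 and 611 CPM in citrate buffer replicates 1 to 4 and at 587, 665, 514 and 652 CPM in iron citrate replicates 1 to 4, so the groups lay within the same range. The means were 602 ± 77.2 and 604 ± 69.3 CPM, the log2 fold change was 0.00 with an interval of -0.33 to 0.34, and the edgeR adjusted p was 0.99. Platelets, which are known to store TGF-beta 1 and thrombospondin-1, were followed with 12 markers. They summed to 581 to 1066 CPM after buffer and 859 to 1185 CPM after iron, and edgeR called 0 of the 8 that were tested. Most of that sum was *Clec1b*, a lectin gene that sinusoidal endothelium also uses, at 505 to 1021 and 819 to 1137 CPM. The platelet chemokine gene *Pf4* was at 12.6 to 24.9 CPM after buffer, highest in citrate buffer replicate 1, and 11.3 to 16.6 CPM after iron. The untested platelet markers *Gp9*, *Gp6*, *Treml1* and *Tubb1*, named outside the rule, had few reads. These were 30, 3, 8 and 4 over all buffer libraries and 25, 0, 2 and 13 over all iron libraries. Whether platelets were in the sort was not tested.

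*Tgfb2* was the member with the lowest log2 fold change, and that value rested on citrate buffer replicate 1. It was at 29.6, 14.4, 7.39 and 9.01 CPM in citrate buffer replicates 1 to 4 and at 12.2, 11.4, 7.56 and 9.28 CPM in iron citrate replicates 1 to 4. Citrate buffer replicates 1 and 2 were thus the 2 highest libraries, and the other 2 buffer libraries lay among or just below the iron ones. The log2 fold change was -0.58, with an interval of -1.53 to 0.37 (edgeR adjusted p = 0.457). It was -0.03 without citrate buffer replicate 1, -0.60 without citrate buffer replicate 2 and 0.31 without both. The same 2 libraries had the highest shares of counts on receptor and keratin-associated genes. *Ltbp2*, a gene of the latent TGF-beta binding protein family that is named outside the rule, after its values were seen, also had its 2 highest values in these libraries, at 52.9 and 23.2 CPM in citrate buffer replicates 1 and 2 and at 8.51 to 18.7 CPM in the other 6 libraries.

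**Figure D2:**
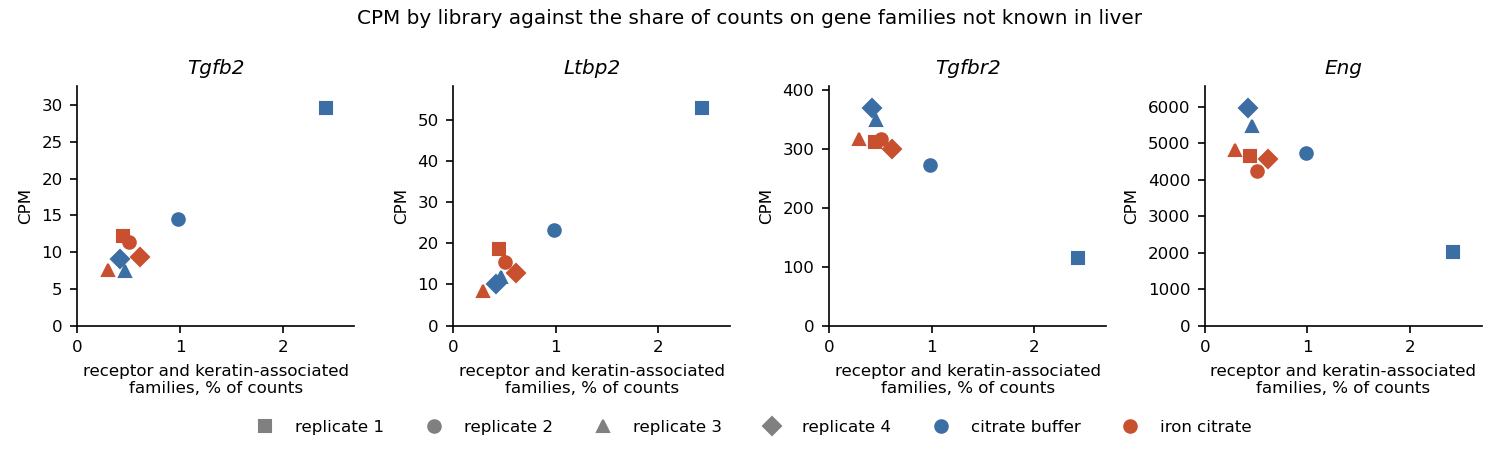
CPM of *Tgfb2*, *Ltbp2*, *Tgfbr2* and the co-receptor gene *Eng* (vertical axes, linear and from 0) in each library against the share of its counts on olfactory, vomeronasal type 1 and taste receptor and keratin-associated genes (horizontal axis, percent). Citrate buffer replicate 1, at 2.42%, is the highest library for *Tgfb2* and *Ltbp2* and the lowest for *Tgfbr2* and *Eng*, and the 6 libraries under 0.7% lie close together.

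The members *Thbs1* and *Fst*, which act on ligands outside the cell, were at or near the edge of detection, as was *Inhba* after buffer. *Thbs1* had 22, 8, 20 and 14 reads in citrate buffer replicates 1 to 4 and 18, 16, 17 and 13 reads in iron citrate replicates 1 to 4, or 0.668 to 2.10 and 1.19 to 1.84 CPM. The groups overlapped fully, and the log2 fold change of 0.05 had an interval of -0.85 to 0.94 (edgeR adjusted p = 0.96), so changes within it were not resolved at this depth. The interval is not the limit for a call, since *Inhba*, at a log2 fold change of 1.46, was not called either. *Fst* had 3, 2, 2 and 0 reads in the buffer libraries and 0, 0, 4 and 0 reads in the iron libraries. Since 3 reads are the limit that a count of 0 allows, or 0.251 to 0.398 CPM depending on the library, no fold change is given for it. The related inhibitor gene *Fstl3*, named outside the rule, had 5 reads over all buffer libraries and 4 over all iron libraries.

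Among the receptors, *Tgfbr1*, the type I receptor that phosphorylates SMAD2 and SMAD3, was at 6.67, 9.10, 11.7 and 8.75 CPM in citrate buffer replicates 1 to 4. It was at 12.8, 15.3, 13.2 and 9.55 CPM in iron citrate replicates 1 to 4, where 3 of 4 libraries lay above every buffer library and replicate 4 fell inside the buffer range. The means were 9.05 ± 2.05 and 12.7 ± 2.39 CPM, with a log2 fold change of 0.49 (interval -0.11 to 1.09, edgeR adjusted p = 0.347). Without citrate buffer replicate 1, the lowest library, the log2 fold change of *Tgfbr1* was 0.36. *Tgfbr2*, the ligand-binding type II receptor, was at 115, 272, 349 and 369 CPM after buffer and at 311, 316, 317 and 299.7 CPM after iron. The 4 iron libraries lay within a narrow band, and the buffer libraries spanned both sides of it. The log2 fold change was 0.17 (interval -0.50 to 0.84, edgeR adjusted p = 0.78), and without citrate buffer replicate 1 it was -0.09. That library was also the lowest in *Eng*, the endothelial co-receptor endoglin, likewise named after its values were seen, at 2005 CPM against 4228 to 5968 CPM elsewhere, and in the summed sinusoidal markers given above. What the low *Tgfbr2* value of this library owes to either was not tested, and in bulk samples fewer cells of a type and less RNA per cell cannot be told apart.

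Inside the cell, *Smad3*, which carries the signal of both ligand families to DNA, was at 22.0, 25.5, 39.5 and 33.0 CPM in citrate buffer replicates 1 to 4 and at 35.1, 21.0, 30.7 and 30.8 CPM in iron citrate replicates 1 to 4. The groups overlapped fully, and the log2 fold change was -0.03 (interval -0.53 to 0.47, edgeR adjusted p = 0.957). *Skil* was at 66.7, 71.6, 80.8 and 77.8 CPM after buffer and at 100.2, 97.3, 155 and 82.4 CPM after iron. Its groups did not overlap, but iron citrate replicate 4 was just above the highest buffer library and replicate 3 was well above the others. The means were 74.2 ± 6.32 and 109 ± 32.1 CPM, and the log2 fold change was 0.55 with an interval of 0.12 to 0.98 (edgeR adjusted p = 0.333, unadjusted p = 0.0169). Without iron citrate replicate 3 it was 0.33.

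**Figure D3:**
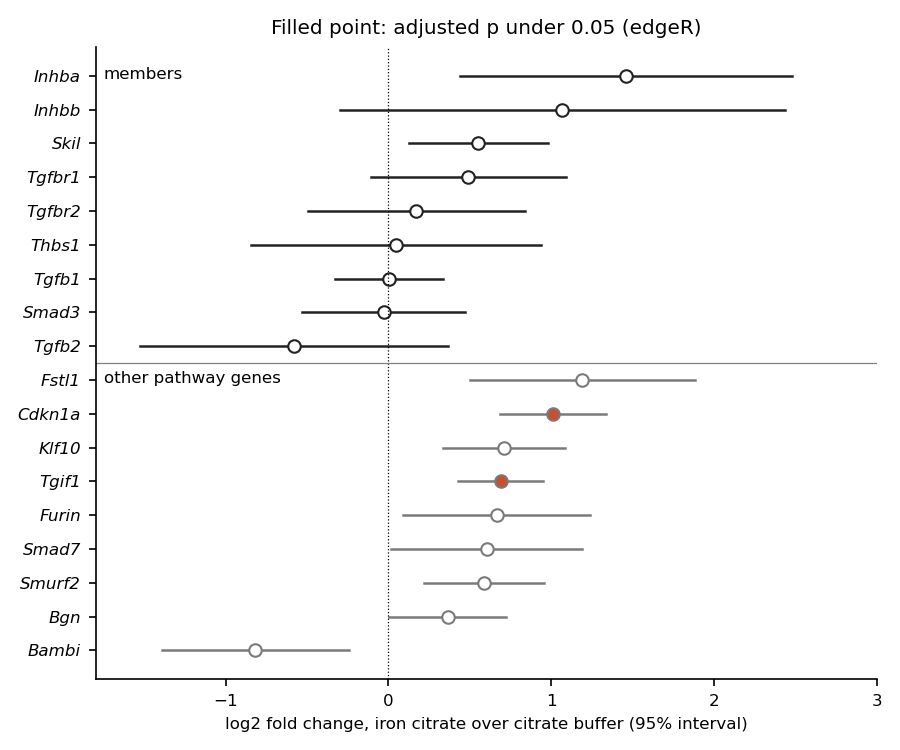
Log2 fold change of iron citrate over citrate buffer with its 95% interval (horizontal axis) for the 9 tested members, above the grey line, and 9 other pathway genes, below it. Filled points had an edgeR adjusted p under 0.05. No member is filled, the intervals of *Inhba* and *Skil* exclude 0, and *Tgif1* and *Cdkn1a* are the 2 filled points.

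The rest of the pathway was read through 5 lists with 83 genes in all, of which 80 were matched and 66 tested. edgeR called 2 of the 66 higher and 0 lower, where it called 0.527% and 0.0274% of all targets, and 51 of the 66 had a log2 fold change above 0 against 49.0% of all targets. Their median was 0.26, against -0.01 over all targets. Without citrate buffer replicate 1, 46 of the 66 were above 0, with a median of 0.11, against -0.04 over all targets. Without citrate buffer replicates 1 and 2, 42 of the 66 were above 0, with a median of 0.08, against 0.01. With all 8 libraries, groups did not overlap in 11 of the 66, 10 higher and 1 lower, beside 6.36% and 2.29% of all targets.

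Of 19 SMAD effectors and regulators, edgeR called 1 higher and 0 lower, beside 0.527% and 0.0274% of all targets. *Tgif1*, a co-repressor of SMAD2 and SMAD3 like SnoN, was at 52.1, 61.0, 54.3 and 57.0 CPM in citrate buffer replicates 1 to 4 and at 94.7, 91.3, 95.3 and 80.8 CPM in iron citrate replicates 1 to 4. Both groups were tight and well separated. *Tgif1* rose with a log2 fold change of 0.69 and an SE of 0.12 (edgeR adjusted p = 0.0287). The call held without citrate buffer replicate 1 (adjusted p = 0.00893) and was lost when any other 1 library was left out, with adjusted p-values of 0.0578 to 0.152. It was lost as well with upper-quartile factors (0.0733), library totals (0.0601), no low-count filter (0.0612) or a replicate block (0.183). *Smad7*, the inhibitory SMAD induced by the pathway, was at 41.0 to 105 CPM after buffer and 111 to 147 CPM after iron (log2 fold change 0.60, edgeR adjusted p = 0.333). Its lowest value was again that of citrate buffer replicate 1, without which the log2 fold change was 0.37. *Smurf2*, a ubiquitin ligase that removes the receptors together with SMAD7, was at 35.6 to 51.2 and 57.6 to 77.6 CPM (log2 fold change 0.59, edgeR adjusted p = 0.264), with a log2 fold change of 0.39 without citrate buffer replicates 1 and 2. These 2 genes, like *Tgif1*, had groups that did not overlap, but neither passed the test.

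Of 24 tested target genes of TGF-beta, edgeR called 1 higher, 0 lower and 23 in neither direction, beside 0.527% higher and 0.0274% lower of all targets. DESeq2, which called 2.01% of all targets higher, also called *Klf10* and *Pdgfb* higher. The one that edgeR called was *Cdkn1a*, the inhibitor of cyclin-dependent kinases, which p53 also drives. It went from 33.9 to 45.1 CPM after buffer to 68.4 to 89.3 CPM after iron (log2 fold change 1.01, SE 0.15, edgeR adjusted p = 0.012). The call was lost when citrate buffer replicate 3 was left out (adjusted p = 0.0524), and likewise for iron citrate replicates 3 (0.0533) and 4 (0.0567), with upper-quartile factors (0.0624), with library totals (0.0569) or with a replicate block (0.0928). *Klf10*, an early TGF-beta response gene, was at 85.1 to 109 and 119 to 196 CPM (log2 fold change 0.71, edgeR adjusted p = 0.147), and it passed without citrate buffer replicate 1 (0.0152), with limma-voom (0.0217) and with DESeq2 (0.00881).

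Among 11 tested ligand latency and activation genes, 8 tested receptors and co-receptors and 5 tested extracellular inhibitors, edgeR called none with all 8 libraries. DESeq2, which called 2.01% of all targets higher, called 1 of them higher, *Fstl1*. *Furin*, a protease gene whose product cleaves the TGF-beta precursor, was at 18.7 to 45.1 CPM after buffer and 45.4 to 64.0 CPM after iron (log2 fold change 0.66, edgeR adjusted p = 0.333). The log2 fold change of *Furin* was 0.45 without citrate buffer replicate 1, its lowest library, and 0.32 without citrate buffer replicates 1 and 2. *Bambi*, a decoy receptor without a kinase, was the only gene of the 5 pathway lists that was lower after iron without overlap, at 29.8 to 40.5 against 12.5 to 29.4 CPM (log2 fold change -0.82, edgeR adjusted p = 0.326). *Fstl1*, a secreted follistatin-like protein gene, was at 7.14 to 14.4 and 18.3 to 39.7 CPM (log2 fold change 1.19, edgeR adjusted p = 0.209), and it passed with DESeq2 (0.0183). Without citrate buffer replicate 1, its lowest library, *Fstl1* had a log2 fold change of 1.02 (edgeR adjusted p = 0.0569). Its highest library was iron citrate replicate 3, as for *Inhbb* and *Skil*. *Bgn*, the matrix proteoglycan biglycan, which binds TGF-beta, was at 454 to 572 and 585 to 867 CPM (log2 fold change 0.36, edgeR adjusted p = 0.333). Its log2 fold change was 0.29 without citrate buffer replicate 1, the lowest library, and 0.23 without iron citrate replicate 4. The type I activin receptor gene *Acvr1b*, named outside the rule for its role, was at 13.3 to 33.1 and 33.1 to 48.2 CPM (log2 fold change 0.53, edgeR adjusted p = 0.335). Its lowest value was that of citrate buffer replicate 1, and the other buffer libraries were at 27.6 to 33.1 CPM.

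**Figure D4:**
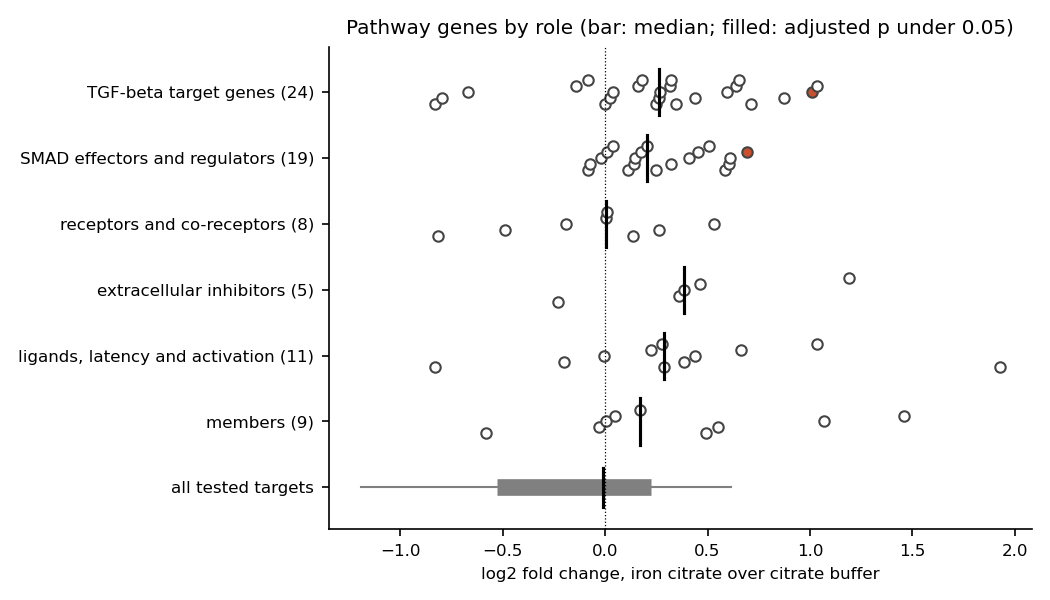
Log2 fold change of iron citrate over citrate buffer (horizontal axis) of each tested gene in the member set and the 5 pathway lists, with numbers tested in brackets and medians as black bars. The bottom row gives all tested targets, with a thick bar from the 25th to the 75th percentile (-0.53 to 0.22) and a line from the 5th to the 95th (-1.19 to 0.61). Filled points had an edgeR adjusted p under 0.05, 1 among SMAD effectors and regulators and 1 among target genes.

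Signs of other cell types were present in both groups. Over the 8 marker lists, with 8 to 15 tested genes each, edgeR called 1 gene, where it called 0.527% of all targets higher and 0.0274% lower. This was the dendritic cell lectin *Clec9a*, which rose (log2 fold change 0.76, edgeR adjusted p = 0.0221). The dendritic cell genes *Xcr1*, *Flt3*, *Cd209a* and *Itgax* of the same list, named here after their values were seen, had log2 fold changes of -0.54, -0.60, -0.38 and -0.03, and none passed. *Siglech*, a further dendritic cell gene of that list, went the other way with a log2 fold change of 0.69 (edgeR adjusted p = 0.333). No list had a gene at 0 in all libraries among its matched genes. That does not show that a cell type was present, since targets that liver is not known to use also took reads. The macrophage gene *C1qa*, named outside the rule, had 1 read over all buffer libraries and 2 over all iron libraries. Stellate cells, a known source of TGF-beta targets such as collagens, were seen in *Dcn* at 176 to 463 CPM after buffer and 281 to 437 CPM after iron. *Dcn*, *Col1a1*, *Col1a2*, *Col3a1* and *Acta2* stand in both a pathway and the stellate list. Summed levels after buffer and after iron were 339 to 770.3 and 528 to 779.6 CPM for stellate cells and fibroblasts, 775 to 1075 and 688 to 1190 CPM for Kupffer cells and macrophages, and 517 to 973 and 405 to 890.4 CPM for hepatocytes. They were 444 to 824 and 626 to 706 CPM for monocytes, neutrophils and dendritic cells, 505 to 881 and 591 to 623 CPM for T, NK and B cells, and 431 to 736 and 632 to 872 CPM for continuous endothelium. Within the last list, *Vwf*, the von Willebrand factor gene, is named after its values were seen: it was at 4.76 to 30.3 CPM after buffer and 40.8 to 143 CPM after iron, without overlap and highest in iron citrate replicate 3 (log2 fold change 2.03, edgeR adjusted p = 0.239). Its part in the *Inhbb* value was not tested. *Stab2*, a marker of the sort, was at 901 to 1222 CPM after buffer and 879 to 1169 CPM after iron, and *Pecam1*, a general endothelial gene that was not part of the gate, at 1688 to 2206 and 1835 to 2154 CPM. *Mcam*, which encodes the sort marker CD146, was lower in all 4 iron libraries, at 165 to 193 against 204 to 285 CPM, but did not pass (edgeR adjusted p = 0.239). *Ptprc*, which encodes CD45, was at 382 CPM in citrate buffer replicate 1 and 135 to 208 CPM in the others.

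**Figure D5:**
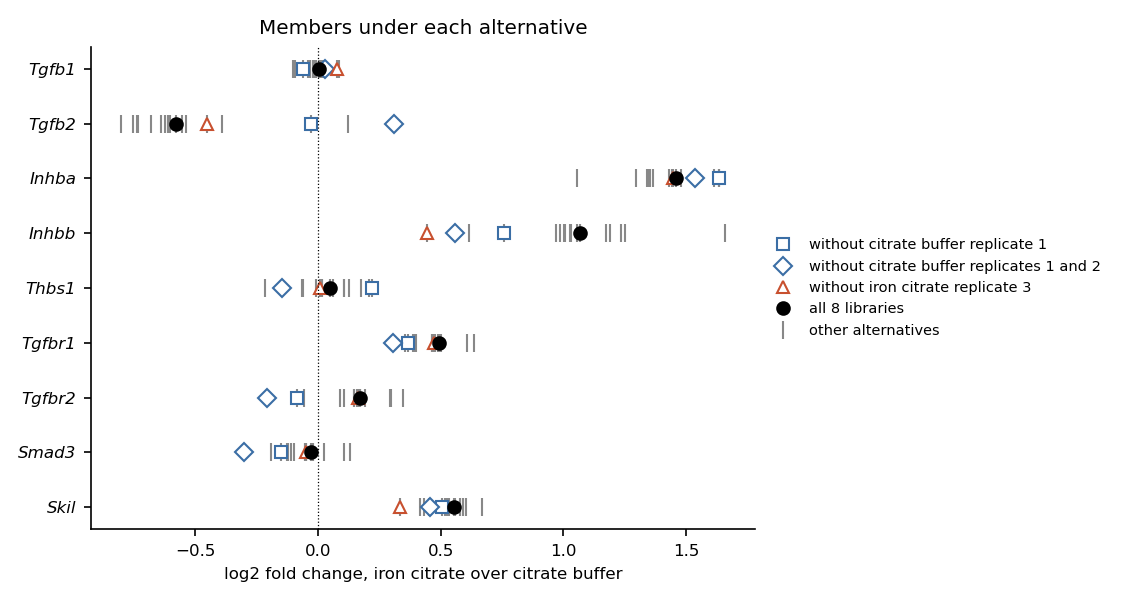
Log2 fold change of iron citrate over citrate buffer (horizontal axis) of the 9 tested members with all 8 libraries (filled circle) and under each alternative, with the fits that leave out citrate buffer replicate 1, citrate buffer replicates 1 and 2 or iron citrate replicate 3 marked. *Inhba*, *Inhbb*, *Tgfbr1* and *Skil* stay above 0 in each of these fits, and *Tgfb2* moves from -0.58 to 0.31 without citrate buffer replicates 1 and 2.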

How the data were processed

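RNA of sorted cells was read with Ion AmpliSeq amplicons, 1 per target, per the labels' protocols. The authors deposited raw read counts per RefSeq target, and the submitters' processing notes list HTSeq 0.6.0 and DESeq2 1.18.1. Neither aligner nor build is given in the sources used here. HTSeq's summary lines (2.15% to 4.60% of reads) were left out. Symbols were matched by RefSeq accession (18124 with the version, 4324 without, 114 through a second table, 1368 unmatched).

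With edgeR 4.0.16 in R 4.3.3, targets were filtered (filterByExpr, 14601 left), scaled by TMM and tested with a robust quasi-likelihood F-test, with Benjamini-Hochberg adjustment over all of them. Intervals are 95%, from the F statistic. The step was tested on simulated data. Alternatives were other scalings, DESeq2 1.42.0, limma-voom 3.58.1 with sample weights, other filters, a replicate block, and fits without single libraries or without citrate buffer replicates 1 and 2. The limit of 3 reads for a count of 0 covers counting error only, since no molecular identifiers are stated. Pairs of libraries within a group differed by more than sampling noise (chi-square per degree of freedom at least 8.34).

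The members, lists and alternatives were chosen with earlier results of these data known. Named besides the members were, in each pathway list, called genes and up to 4 with groups that did not overlap and a mean CPM of at least 5 (or the 2 with the highest mean CPM). Sort markers, *Hmox1*, *Bmp6* and the cell type markers with the highest mean CPM were named as well. Any other gene is marked where it is named. Promoters are from RefSeq, GRCm38.p6. Python 3.11.15 made tables and figures.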

Additional observations from a re-analysis of the deposited data

Results flagged for a closer look

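In 36 groups of 4 libraries, 2 for each tested member or named pathway gene, 4 had a library far from the other 3, where chance alone gives about 1 in 20. *Inhbb* was at 29.2 CPM in iron citrate replicate 3, against 8.41 to 10.5 CPM in the other iron libraries. *Thbs1* was at 1.19 CPM in iron citrate replicate 4, on 13 reads, against 1.76 to 1.84 CPM. *Bgn* was at 454 CPM in citrate buffer replicate 1, against 557 to 572 CPM in the other buffer libraries. *Smurf2* was at 77.6 CPM in iron citrate replicate 2, against 57.6 to 59.3 CPM.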

How the results depend on the processing

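No member was called in any of the 17 alternatives, though *Inhba* and *Thbs1* were not tested at a mean CPM of at least 5. The number of all genes called was 81, and it was 362 with DESeq2, 289 with limma-voom, 43 with the replicate block, 281 without citrate buffer replicates 1 and 2, and 46 to 259 with 1 library left out, the highest without citrate buffer replicate 1. Of the other pathway genes 2 were called, against 5 with DESeq2, 1 without the low-count filter, 0 with the replicate block and 0 under both upper-quartile factors and library totals, and 0 to 3 with 1 library left out. Upper-quartile factors and library totals moved the median log2 fold change of all targets from -0.01 to -0.12 and -0.11.

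The log2 fold changes of 5 members changed sign. *Tgfb1* (0.00) was at -0.019 with relative log expression factors or DESeq2, -0.021 with a mean CPM of at least 5, -0.10 with upper-quartile factors, -0.094 with library totals, -0.0075 with limma-voom, and -0.061 to 0.087 with 1 library left out. *Thbs1* (0.05) was at -0.067, -0.060 and -0.15 with upper-quartile factors, library totals and without citrate buffer replicates 1 and 2, and at -0.22 to 0.22 with 1 library left out. *Tgfb2* (-0.58) was at 0.12 with limma-voom and 0.31 without citrate buffer replicates 1 and 2, *Tgfbr2* at -0.058 and -0.21 in these fits and at -0.086 to 0.34 with 1 library left out, and *Smad3* (-0.03) at -0.15 to 0.13 with 1 library left out. The cause was not tested.

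The labels do not say whether the replicate numbers pair the libraries. Deviations of libraries with the same number correlated at 0.00, 0.18, 0.61 and -0.32 (replicates 1 to 4). Values for libraries with different numbers are not given here, so these cannot settle it. With the replicate block, *Tgif1* and *Cdkn1a* lost their calls, with adjusted p-values of 0.183 and 0.0928 at log2 fold changes of 0.69 and 1.01.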

Other observations

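Below the mean level set for naming, 2 further pathway genes were higher in every iron citrate library than in every buffer library, and they are named here after their values were seen. *Itgb8*, the beta chain of an integrin that frees latent TGF-beta, was at 0.0952, 0.251, 0.445 and 0.663 CPM in citrate buffer replicates 1 to 4 and at 1.173, 1.498, 1.681 and 1.102 CPM in iron citrate replicates 1 to 4. These values rest on 1, 3, 5 and 5 reads after buffer and 12 to 16 reads per library after iron, and citrate buffer replicate 1 lies below its 3-read limit of 0.286 CPM. The fitted log2 fold change of 1.93 (edgeR adjusted p = 0.189) is therefore imprecise. *Pdgfb*, a growth factor gene for the cells around vessels, was at 2.00 to 3.18 CPM after buffer and 4.41 to 5.77 CPM after iron (log2 fold change 1.03, edgeR adjusted p = 0.28), and DESeq2 called it higher. *Snai2*, a transcription factor that TGF-beta induces, is also named outside the rule and went the other way with overlap. It was at 64.4, 56.0, 38.6 and 38.2 CPM in citrate buffer replicates 1 to 4 and at 17.5 to 38.3 CPM after iron (log2 fold change -0.79, edgeR adjusted p = 0.333). Its 2 highest values were those of citrate buffer replicates 1 and 2, as for *Tgfb2* and *Ltbp2*. No fit of *Snai2* without these libraries is given here.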
